A study of Mus musculus with 18 samples.

Results

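The 7 genes described here are the G1 cyclins and the 2 CDK inhibitors of the CIP/KIP family named with them, namely the D cyclins Ccnd1, Ccnd2 and Ccnd3, the E cyclins Ccne1 and Ccne2, and the inhibitors Cdkn1a (p21) and Cdkn1b (p27). They were chosen by name but with earlier results of these data known, so counts of members called are not those of an independent set. All 7 were found among the 22997 nuclear genes of the count files. The data are single-cell RNA-seq counts of C57BL/6 wild-type mouse embryos, with 6 libraries of hand-picked cells at embryonic day (E) 6.75 made by CEL-Seq2 and 12 libraries of cells sorted by flow cytometry at E7.5 made by mCEL-Seq2, its automated small-volume form. At E6.75 the extraembryonic part was removed and embryos were dissociated one at a time, whereas at E7.5 embryos were cut below the chorion, so that extraembryonic mesoderm stayed in, and cells of 1 or 2 litters went in together. The stage, the collection and the protocol version differ between the same libraries and cannot be told apart. Each library used 96 cell barcodes, and cells with at least 2000 nuclear transcripts were kept, which left 543 of 576 cells at E6.75 and 429 of 1152 at E7.5.

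Progress through G1 is driven by D cyclins bound to the kinases Cdk4 and Cdk6, and then by E cyclins bound to Cdk2. These kinases phosphorylate the pocket proteins of the Rb family and so release E2F factors, which drive the genes of DNA replication. Cdkn1a and Cdkn1b bind and inhibit Cdk2 complexes, Cdkn1a being a classical target gene of p53 and Cdkn1b a protein controlled largely by its degradation. The mouse epiblast is known for very short cell cycles with a brief G1 around gastrulation, when cells leave it through the primitive streak. T marks the streak, Mesp1 nascent mesoderm, Foxa2 endoderm, axial mesoderm and visceral endoderm, and Sox2 epiblast and ectoderm.

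In the GENCODE M21 annotation of GRCm38, Ccnd1 lies on chromosome 7 at 144929931 to 144939925 (minus strand) and Ccne1 on the same chromosome at 38097984 to 38107534 (minus strand). Ccnd2 lies on chromosome 6 at 127125162 to 127152193 (minus strand) and Cdkn1b on that chromosome at 134920401 to 134925513 (plus strand). Ccnd3 lies on chromosome 17 at 47505051 to 47599691 (plus strand) and Cdkn1a at 29090976 to 29100727 (plus strand), and Ccne2 on chromosome 4 at 11191351 to 11204779 (plus strand). Genes on the opposite strand overlap 5 members, LTO1 at Ccnd1, 9330179D12Rik and Gm43126 at Ccnd2, Bysl at Ccnd3, Ints8 at Ccne2 and AC167363.2 at Cdkn1a. Whether strand was used in counting, and the build counted against, were not given in the sources used here, so reads of such pairs could not be told apart.

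The promoter of Cdkn1a is shown because Cdkn1a was the inhibitor that differed between cells with and without T, and because p53 axis genes are counted with it below. The 100 bases before the first RefSeq start of Cdkn1a (GRCm38.p6, chr17:29090879-29090978, plus strand, written 5′ to 3′) hold the letters ACATGT, letters found at the core of p53-type sites, at positions 52 and 62, marked by capitals.
Cdkn1a: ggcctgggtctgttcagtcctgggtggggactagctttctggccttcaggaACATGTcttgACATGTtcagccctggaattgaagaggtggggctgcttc
ACATGT, which reads the same on both strands, occurred at least once in 5.28% and at least 2 times in 0.329% of 32851 RefSeq promoter windows of 300 bases. It did not occur in the other 5 windows of members in that table (a second start of Cdkn1a, 2 starts of Ccnd3, and 1 each of Cdkn1b and Ccne1). None of the 6 windows held TTTCGCGC, TTTGGCGC, TTTCCCGC or TTTGCCGC, the E2F-type letters searched on both strands, which occurred in 2.26% of all windows. The T-box-type letters AGGTGTGA occurred 1 time in the window of the second Cdkn1a start and in no other member window, against 1.28% of all windows. GGGCGGG, the GC box, occurred 4 times in the Ccne1 window. It occurred 2 times in each Ccnd3 window and in that second Cdkn1a window, and at least once in 25.6% of all windows. Binding at any of these letters was not tested.

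Library sums held 2921862 to 5493791 nuclear transcripts of 85 to 96 kept cells at E6.75. The E7.5 sums held 488908 to 2618539 transcripts of 15 to 71 kept cells. E7.5 replicate 5 had no kept cell and entered no comparison. By marker genes, 40 kept cells at E6.75 and 7 at E7.5 were extraembryonic, and these were left out before cells were divided by T, Mesp1, Foxa2 or Sox2. Values are given as CPM, the transcripts of a gene per 1e6 nuclear transcripts of a library sum. A transcript is counted once from its 3′ end whatever the length of the gene, so CPM of different genes are set side by side as molecules. Barcode columns are named by number only, and each used number occurred in at least 2 libraries, so it says nothing of shared cells or embryos. Nothing in the labels says which libraries share embryos. The p-values measure the spread between libraries, not between embryos.

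Between the stages Ccnd2 took the place of Ccnd1 as the D cyclin with the most transcripts in the sums of all kept cells. Within cells with Sox2 and no T, Ccnd1 kept the higher mean at E7.5, as given below. Of the 7 members 2 (Ccnd2 and Ccnd3) were higher at E7.5 and 2 (Ccnd1 and Ccne1) lower, where 38.8% of all genes tested were called (20% higher and 18.8% lower), so the number of calls alone does not set the members apart. Ccnd2, a D cyclin, was at 9.04 CPM in the lowest E6.75 library, 18.4 at the median and 52.4 in the highest. At E7.5 it was at 222 CPM in the lowest library, 283 at the median and 435 in the highest. Every E7.5 library thus lay above every E6.75 library, as was true, in one direction or the other, of 8.24% of the 9998 genes tested. The mean of 27.3 CPM (SD 19.2, n = 6) gave way to 293 CPM (SD 64.7, n = 11), a 10.1-fold rise in the edgeR quasi-likelihood fit (log2 3.34, SE 0.29, adjusted p = 2.03e-08). Replicates 2_13 and 2_14, the E6.75 libraries with the most T-positive cells (48 and 47), held the highest E6.75 values of Ccnd2 (50.8 and 52.4 CPM). They were also the deepest, with a median of 54686 and 53967 transcripts per kept cell against at most 35382 in the other E6.75 libraries. Depth is part of whether T is seen.

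The makeup of the libraries moved with the stage. The 5 epiblast markers, all detected at both stages, summed to 1731 to 2295 CPM at E6.75 and 359 to 891 CPM at E7.5, without overlap. The 5 markers of lateral and extraembryonic mesoderm, also all detected, had a median sum of 55.5 CPM (23.8 to 109) and then 303 CPM (41.8 to 652), and 6 markers of blood and endothelium one of 9.76 CPM (8.57 to 61.4, 1 of the 6 at 0) and then 81.6 CPM (22.8 to 308, none at 0). Mitochondrial transcripts made up 13.7% to 18.7% of an E6.75 library and 9.08% to 14.4% of an E7.5 library. The part of these shifts in the stage changes of members was not tested. Values in cells chosen by the same detected genes are given below, but the makeup of those with T and of those with Sox2 also moved.

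**Figure D1:**
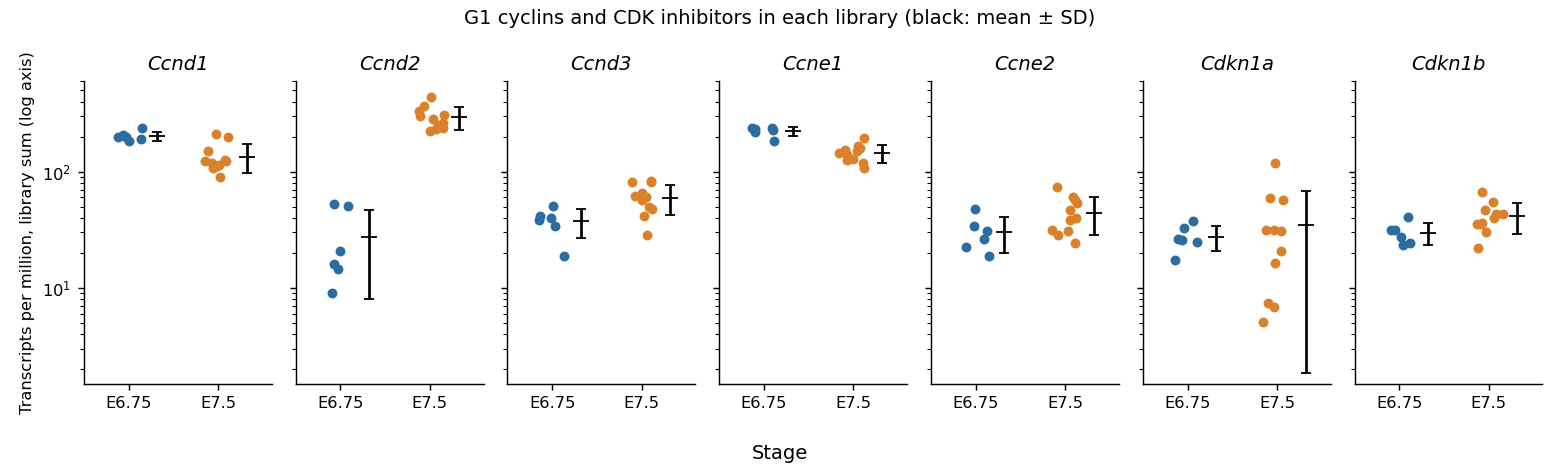
Level of each of the 7 genes in every library, in transcripts per 1e6 nuclear transcripts on a log axis, with 1 point per library (6 at E6.75, 11 at E7.5) and the mean ± SD in black. The 11 E7.5 points of Ccnd2 (222 to 435) lie above all 6 E6.75 points (9.04 to 52.4), and Cdkn1a has the widest spread at E7.5 (5.08 to 118).

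Ccnd1, the D cyclin with the most transcripts at E6.75, fell. Its E6.75 libraries lay between 184 and 235 CPM with a median of 199, and its E7.5 libraries between 90.1 and 210 CPM with a median of 123. Of the 11 E7.5 libraries 9 lay below the lowest E6.75 library, and replicates 10 and 11 (197 and 210 CPM) lay within the E6.75 range. The change was log2 −0.67 (SE 0.14, edgeR adjusted p = 0.000615), or 1.59-fold lower at E7.5. Ccnd3, the third D cyclin, averaged 37.3 CPM (SD 10.6, n = 6) before and 59.9 CPM (SD 17.5, n = 11) after, a rise of log2 0.65 (SE 0.19, edgeR adjusted p = 0.00841), and 7 of 11 E7.5 libraries lay above the highest E6.75 library. With the 4 E6.75 libraries whose number starts with 2 alone, the call for Ccnd3 was lost (log2 0.47, edgeR adjusted p = 0.0606).

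As shares of all D cyclin transcripts of a library, Ccnd1 made up a mean of 76.3% (SD 8.44, n = 6) at the earlier stage and 27.7% (SD 6.65, n = 11) at the later one. Ccnd2 made up 9.81% ± 6.09 and then 60.0% ± 5.46 of them. Ccnd3 made up 13.9% ± 3.54 and 12.3% ± 3.16, more than Ccnd2 on average at E6.75 and the smallest part on average at E7.5. The lowest Ccnd1 share at E6.75 was 65.4% and the highest at E7.5 was 40.5%, so the stages did not overlap.

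**Figure D2:**
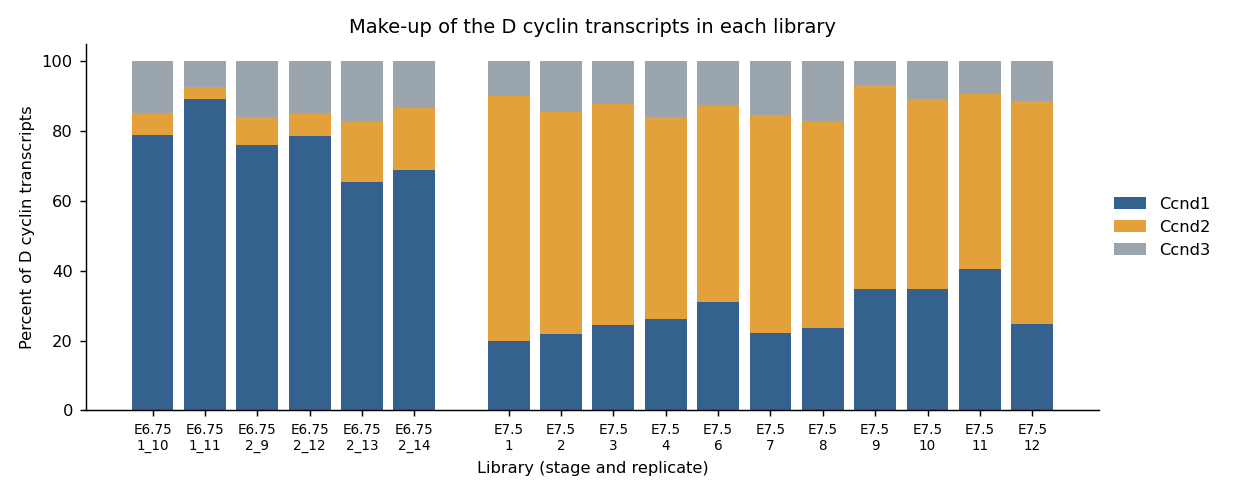
Percent of the D cyclin transcripts of each library that came from Ccnd1, Ccnd2 and Ccnd3, with 1 bar per library from 0 to 100. Ccnd1 fills 65.4% to 89.4% of each E6.75 bar and 19.8% to 40.5% of each E7.5 bar, and Ccnd2 fills 50.3% to 70.2% of each E7.5 bar.

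Of the E cyclins, which act after the D cyclins with Cdk2, Ccne1 fell and Ccne2 did not pass the test. Ccne1 lay at 182 CPM in the lowest E6.75 library, 230.2 at the median and 238 in the highest, against 107, 144 and 195 CPM at E7.5. All but 1 of the 11 E7.5 libraries lay below the lowest E6.75 library. The change was log2 −0.68 (SE 0.10, edgeR adjusted p = 2.52e-05), or 1.61-fold lower at E7.5. Ccne2 was at 30.2 ± 10.3 CPM (SD, n = 6) and 44.3 ± 15.7 CPM (SD, n = 11), with log2 0.52 (SE 0.21, edgeR adjusted p = 0.0532). Its adjusted p lay between 0.0134 and 0.25 over 24 alternatives, 7 of which passed, so the call for Ccne2 depends on the setting. Ccne1 was the larger part of the E cyclin transcripts at both stages, with 88.0% ± 4.08 (SD, n = 6) and 76.7% ± 6.48 (SD, n = 11).

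Neither CDK inhibitor passed the test between the stages. Cdkn1b averaged 29.9 CPM (SD 6.31, n = 6) in E6.75 libraries and 41.4 CPM (SD 12.2, n = 11) in E7.5 libraries (log2 0.39, SE 0.17, edgeR adjusted p = 0.077). Without E6.75 replicate 2_12 the adjusted p was 0.0325, and without E7.5 replicate 6 it was 0.0268. Cdkn1a was at 17.5 CPM in the lowest E6.75 library, 26.2 at the median and 37.5 in the highest. At E7.5 it ranged from 5.08 CPM in replicate 12, 6.81 in replicate 11 and 7.42 in replicate 10 through 30.6 at the median to 118 in replicate 2. The E7.5 libraries thus spread on both sides of the E6.75 range, with 4 below and 3 above it (log2 0.45, SE 0.40, edgeR adjusted p = 0.397). With only the 4 E7.5 libraries of at least 50 kept cells, the value was log2 1.06 (edgeR adjusted p = 0.0168).

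By signed log2 change Ccnd2 ranked 66 of 9998, counted from the largest rise down, and by p in either direction it ranked 47.

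The rise of Ccnd2 and the fall of Ccnd1 and Ccne1 were also measured between stages within cells chosen by the same detected genes. This holds the detected genes alike, not the cell type. In cells with T, the 5 epiblast markers summed to 1152 to 1849 CPM at E6.75 and 249 to 890 CPM at E7.5, without overlap. In cells with Sox2, whether or not T was seen, they summed to 1811 to 2387 CPM and then 513 to 1623 CPM, again without overlap. The part of these shifts in the changes below was not tested. In cells with a Sox2 transcript and none of T (252 cells of 6 libraries and 78 cells of 7), Ccnd2 was between 7.32 and 18.9 CPM (mean 13.9, SD 4.50, n = 6) at the earlier stage and between 30.4 and 190.0 CPM (mean 83.9, SD 57.3, n = 7) at the later one. These ranges did not overlap, as for 7.72% of genes tested there. The change was log2 2.81 (SE 0.31, edgeR adjusted p = 1.07e-06). Ccnd1 still averaged more than Ccnd2 in these cells at E7.5, at 119 CPM (SD 38.9, n = 7), with overlapping ranges. There Ccnd1 fell by 0.91 (SE 0.14, edgeR adjusted p = 8.8e-05) and Ccne1 fell by 0.51 (SE 0.13, edgeR adjusted p = 0.00651) on the log2 scale, so that 3 of 7 members were called where 21.6% of all genes were. In cells with a T transcript (151 cells of 6 libraries and 279 cells of 11), Ccnd2 lay between 17.8 and 87.7 CPM and then between 246 and 455 CPM, again apart, as for 7.22% of genes, a change of log2 2.65 (SE 0.24, edgeR adjusted p = 5.44e-08). Ccnd1 fell by 0.60 (SE 0.16, edgeR adjusted p = 0.00704), Ccne1 fell by 0.62 (SE 0.12, edgeR adjusted p = 0.00048) and Ccnd3 rose by 0.75 (SE 0.21, edgeR adjusted p = 0.00795) on the log2 scale in these cells, 4 of 7 members in all against 32.2% of all genes. When detection was read after thinning every cell to 2000 transcripts, the change of Ccnd2 in cells with T was log2 1.67 (edgeR adjusted p = 0.000872), and 3 calls were lost although the values kept their direction. These were Ccne1 in cells with Sox2 and no T (log2 −0.39, edgeR adjusted p = 0.134), Ccne1 in cells with T (log2 −0.47, edgeR adjusted p = 0.113) and Ccnd3 in cells with T (log2 0.82, edgeR adjusted p = 0.0562).

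The share of kept cells with at least 1 transcript, after thinning each cell to 2000 transcripts so that depth is equal, was also read for each member. Ccnd1 was seen in a mean of 29.5% (SD 4.14, n = 6) of cells before and 21.6% (SD 8.20, n = 11) after, and Ccnd2 in 4.74% ± 2.77 and 35.8% ± 9.80. Ccne1 was seen in 34.5% ± 4.67 and 24.9% ± 8.70 of cells on the same terms. The changes of mean for these 3 genes had the direction of their CPM. The other 4 members were seen in 5.56% to 7.31% of E6.75 cells and in 5.50% to 9.69% of E7.5 cells, too few for an order to be read. Unthinned, Ccnd1 was seen in 86.2% and 79.7% of cells, Ccnd2 in 35.8% and 80.0%, and Cdkn1a in 28.8% and 30.7%. At E6.75 Ccnd2 was also seen in 5 of the 40 extraembryonic cells (4 of 27 with visceral endoderm markers and 1 of 13 with extraembryonic ectoderm markers), unthinned, at a median of 25929 transcripts per cell. What part of such detection is free RNA was not tested.

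Members differed in how evenly their transcripts lay over cells. At E6.75 the 10% of kept cells with most transcripts of the gene (55 cells) held 30.8% of the Ccnd1 transcripts and 30.6% of those of Ccne1. The like share was 70.4% for Ccnd2 and 80.4% for Cdkn1a, whose highest cell held 62 of its 663 transcripts. At E7.5 the share was 41.7% for Ccnd2 and 72.5% for Cdkn1a (43 cells), while no other member passed 45.1%. These are descriptions over cells of all libraries, without a test, and depth differs between the cells.

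At E6.75, cells with a T transcript (151 cells) held more Ccnd2 and more Cdkn1a than cells without one (352 cells) of the same library. Ccnd2 was at 17.8 CPM in the lowest library, 34.4 at the median and 87.7 in the highest with T, and at 7.52, 14.5 and 17.9 CPM without it. It was higher with T in 6 of 6 libraries, a like sign throughout being seen for 6.82% of genes, and the means were 47.5 ± 30.7 and 13.5 ± 4.48 CPM (SD, n = 6). The difference was log2 1.80 (SE 0.20, edgeR adjusted p = 1.91e-06). Cdkn1a was at 28.5, 44.8 and 55.6 CPM with T and at 8.35, 15.3 and 29.0 CPM without it, again higher in 6 of 6 libraries. In replicate 2_12 the arms were nearly level (28.5 and 27.9 CPM). The difference was log2 1.44 (SE 0.22, edgeR adjusted p = 0.000138), and the 4 libraries numbered from 2 alone gave log2 1.86 for Ccnd2 and 1.39 for Cdkn1a. So 2 of 7 members were called, where 3.36% of all 9722 genes tested were. No other member passed, and Ccnd1 was at 210 ± 23.4 and 213 ± 24.8 CPM (SD, n = 6) with and without T.

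Cells with T were deeper, with a median over libraries of 59138 transcripts per cell against 32814, and depth was part of whether T was seen. When T was instead read at 2000 transcripts in every cell, the differences were log2 2.01 for Ccnd2 (edgeR adjusted p = 3.27e-08) and 2.03 for Cdkn1a (edgeR adjusted p = 0.000137). Along with these members, epiblast markers (Pou5f1, Utf1, Fgf5, Otx2 and Pou3f1, 5 of 5 detected in both arms) summed to 1152 to 1849 CPM with T and 1906 to 2493 CPM without. The part of this shift in the differences was not tested.

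At E7.5, Ccnd2 was at 246 CPM in the lowest library, 352 at the median and 455 in the highest in cells with T (279 cells), and at 74.0, 235 and 506 CPM in cells without it (143 cells). It was higher with T in 8 of 11 libraries, with log2 0.69 (SE 0.17, edgeR adjusted p = 0.0251), the only one of 6 members tested to be called, where 2.10% of 5870 genes were. This call was lost in 4 of 7 alternatives, among them the gate read at 2000 transcripts (log2 0.21, edgeR adjusted p = 0.688). Cdkn1a was too sparse for the filter on low counts at E7.5. It was at 7.76 CPM in the lowest library, 37.1 at the median and 123 in the highest with T, and at 0, 10.7 and 76.8 CPM without it, and was higher with T in 9 of 11 libraries. In 1 of the 2 others, replicate 9, the 76.8 CPM without T came from 1 transcript in 3 cells. Without the filter, the fit gave log2 1.61 (SE 0.24, edgeR adjusted p = 1.03e-08). That fit rests on sums too small for the filter, down to 0 transcripts in an arm without T, so its SE and p need caution. In the interaction fit, a change of the difference by T between stages did not pass for Cdkn1a (log2 0.17, SE 0.42, edgeR adjusted p = 1) or for Ccnd2 (log2 −1.11, SE 0.33, edgeR adjusted p = 0.172), where 0.452% of all genes were called.

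**Figure D3:**
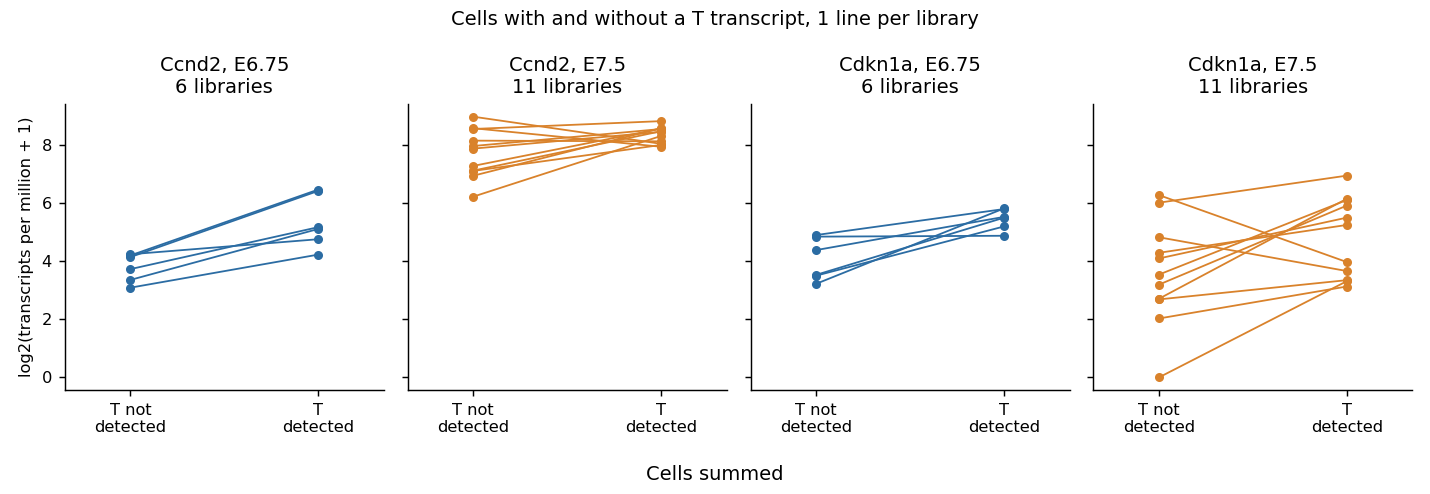
Ccnd2 and Cdkn1a in the cells of each library with and without a T transcript, as log2(transcripts per 1e6 + 1), with 1 line per library (6 of E6.75 and 11 of E7.5). At E6.75 both genes are higher with T in 6 of 6 libraries. At E7.5 Ccnd2 is higher with T in 8 and Cdkn1a in 9 of 11.

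By Mesp1, the marker of nascent mesoderm, Ccnd2 was the member called at E6.75. Only 3 libraries had at least 3 Mesp1 cells, 50 cells in all. With Mesp1, Ccnd2 was at 108 CPM in replicate 2_13, 159 in 2_14 and 44.7 in 2_9. Without Mesp1, it was at 29.8, 30.7 and 16.7 CPM in the same libraries, so the arms did not overlap, as for 13.3% of genes with 3 libraries. The difference was log2 2.00 (SE 0.19, edgeR adjusted p = 3.92e-07), in 1 of 7 members where 1.32% of 9809 genes were called. At E7.5 Ccnd2 was at 338 ± 97.4 CPM with Mesp1 and 271 ± 78.2 CPM without (SD, n = 11), higher in 9 of 11 libraries, but with log2 0.34 (SE 0.12) it did not pass (edgeR adjusted p = 0.0961), nor did any other member with edgeR or DESeq2 (2 had an unadjusted p under 0.05 with each), where 6.09% of genes were called. The difference of Ccnd2 by Mesp1 was smaller at E7.5 than at E6.75 by log2 1.63 in the interaction fit (value −1.63, SE 0.27, edgeR adjusted p = 0.00164), where 0.367% of genes were called. Cdkn1a, which was called by T, was at 32.8 ± 20.2 CPM with Mesp1 and 31.9 ± 4.99 CPM without it (SD, n = 3) at E6.75. The 5 mesoderm markers, Mesp1 among them, had a median sum at E6.75 of 678 CPM with Mesp1 (3 libraries) and 60.5 CPM without (6 libraries). At E7.5 it was 557 and 72.5 CPM (11 libraries each). Those of lateral and extraembryonic mesoderm had one of 433 CPM (65.1 to 557) with Mesp1 and 186 CPM (26.6 to 967) without at E7.5. Not every mesoderm marker was detected in each arm. The part of these shifts in the differences was not tested.

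By Foxa2, no member passed at E6.75 with edgeR or DESeq2 (111 against 392 cells, 1.23% of 9587 genes called), and 1 had an unadjusted p under 0.05, that of edgeR being 0.0122 for Ccnd1 (193 ± 17.5 with and 218 ± 19.5 CPM without Foxa2, SD, n = 6). At E7.5 Ccnd3 was lower with Foxa2 in 9 of 9 libraries (a like sign throughout for 2.18% of genes), at 20.8 CPM in the lowest, 40.8 at the median and 67.8 in the highest against 45.0, 59.3 and 98.6 CPM without it. The arms overlapped, and the difference was log2 −0.74 (SE 0.18, edgeR adjusted p = 0.0246), in 1 of 7 members where 2.41% of 6194 genes were called. The Foxa2 arms held only 3 to 16 cells each. Along with Ccnd3, the 5 mesoderm markers had a median sum of 66.2 CPM (21.2 to 228) with Foxa2 and 337 CPM (156 to 807) without it, and the 5 of lateral and extraembryonic mesoderm 54.4 CPM (0 to 240) and 337 CPM (45.9 to 782), with every marker detected in both arms. The 9 visceral endoderm markers summed to 8.06 to 881 CPM with Foxa2 and to 2.06 to 52.1 CPM without it, where 2 were at 0. The part of these shifts in the difference was not tested. With Foxa2 read at 2000 transcripts the value was log2 −0.67 (edgeR adjusted p = 0.607). The change of this difference between stages was log2 −0.80 and did not pass (edgeR adjusted p = 0.148), where 0.884% of genes were called.

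By Sox2, no member passed at E6.75 with edgeR (1 had an unadjusted p under 0.05) or DESeq2 (0 had one), where cells without Sox2 were far shallower than cells with it (median 9603 against 47432 transcripts, 0.951% of 9150 genes called). At E7.5, Ccnd2 was lower in cells with Sox2 in 9 of 10 libraries. It was at 29.3 CPM in the lowest library, 202 at the median and 383 in the highest with Sox2, against 240.2, 445 and 605 CPM without it. The difference was log2 −1.03 (SE 0.18, edgeR adjusted p = 0.000306), and the exception was replicate 2 (383 and 357 CPM). Ccne2 was also lower with Sox2 in 9 of 10 libraries, at 37.1 ± 13.8 against 57.2 ± 24.9 CPM (SD, n = 10; log2 −0.55, SE 0.16, edgeR adjusted p = 0.0304), a call lost without the filter on low counts (edgeR adjusted p = 0.0571) and with DESeq2 (adjusted p = 0.0863). These were 2 of 7 members where 8.68% of 6106 genes were called. In the interaction fit, neither difference by Sox2 changed between stages past the threshold (log2 −0.84 for Ccnd2, edgeR adjusted p = 0.372, and −0.04 for Ccne2), where 1.68% of genes were called. Markers of lateral and extraembryonic mesoderm (Hand1, Foxf1, Bmp4, Gata4 and Ahnak, 5 of 5 detected in both arms) summed to 22.0 to 303 CPM with Sox2 and 70.0 to 811 CPM without, and their part in these differences was not tested.

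Cdkn1b was called by none of the 4 genes at either stage with edgeR, with differences from log2 −0.06 (by Foxa2 at E6.75) to 0.39 (by Foxa2 at E7.5), and no unadjusted p under 0.05 (lowest 0.115).

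Dividing the cells into classes by which of T, Mesp1, Foxa2 and Sox2 was seen gave an order of Ccnd2 levels at each stage. At E6.75 the lowest classes were cells with none of the 4 (13.5 ± 19.6 CPM, SD, n = 6 libraries) and cells with Sox2 alone (14.3 ± 5.01, n = 6). Cells with T and Sox2 only (25.2 ± 12.7, n = 6) and cells with Foxa2 and no Mesp1 (26.3 ± 16.2, n = 6) came next and lay within their spread of each other. Cells with T alone were at 54.0 ± 36.5 CPM (n = 2), those with Mesp1 and Foxa2 at 88.8 ± 13.5 (n = 2) and those with Mesp1 and no Foxa2 at 129 ± 64.8 (n = 3), and these neighbours too lay within their spread. These last 3 classes rest on 2 or 3 libraries, those of the Mesp1 classes being among replicates 2_13, 2_14 and 2_9, of which 2_13 and 2_14 had the highest Ccnd2 over all kept cells, while the 4 lower classes average all 6 libraries. Cells with none of the 4 genes had a median of only 6460 transcripts. At E7.5 cells with Sox2 alone were lowest, at 81.5 ± 60.6 CPM (SD, n = 6), and cells with none of the 4 were at 376 ± 119 CPM (n = 8). The other classes lay between 268 ± 155 CPM for Foxa2 without Mesp1 (n = 8) and 451 ± 47.8 CPM for Mesp1 with Foxa2 (n = 2, 9 cells), and neighbours in that order lay within their spread. For Cdkn1a, the class with T and Sox2 but no Mesp1 or Foxa2 had the highest median over libraries of E6.75, 56.9 CPM with a range of 13.8 to 108 (6 libraries). It was 16.4 CPM for Sox2 alone (0.767 to 51.0, 6 libraries) and 28.3 CPM for Mesp1 without Foxa2 (8.27 to 42.1, 3 libraries), so the ranges overlap. At E7.5 Cdkn1a was at 96.7 ± 112 CPM (SD, n = 7) in the class with T and Sox2, with a median of 51.8. It was at 128 and 144 CPM in the 2 libraries with at least 3 cells of Mesp1 and Foxa2 (9 cells), and at 50.6 ± 41.7 CPM (SD, n = 8, median 55.3) with T alone, and 13.5 to 39.0 CPM on average in the other classes. These classes were described without a test.

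**Figure D4:**
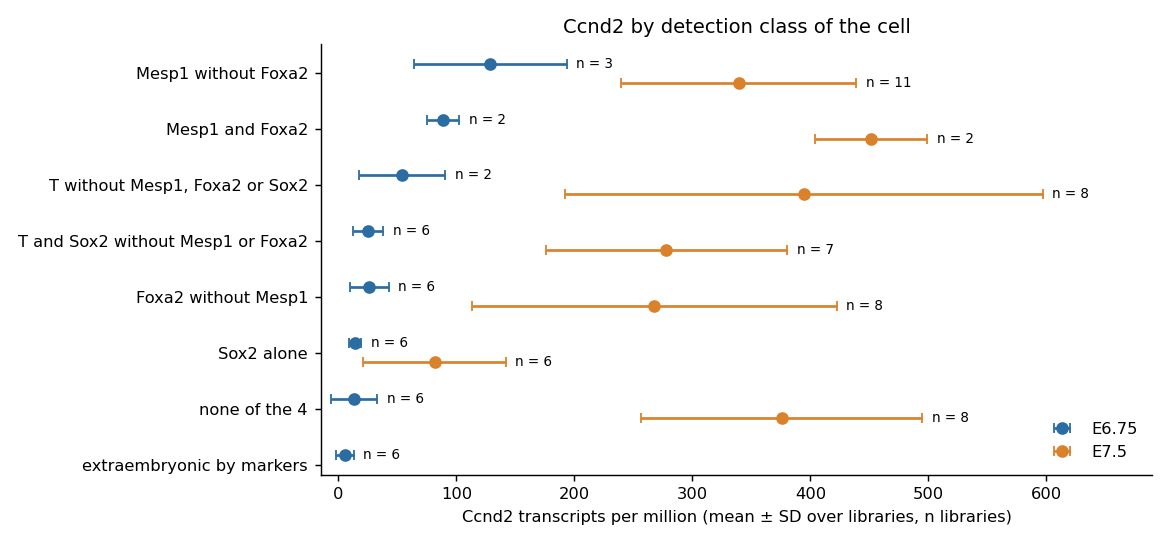
Ccnd2 in transcripts per 1e6 (linear axis) by which of T, Mesp1, Foxa2 and Sox2 were seen in the cell, as the mean ± SD over libraries with at least 3 such cells (n beside each point), for classes with at least 2 libraries. Cells with Sox2 alone are at 14.3 at E6.75 and 81.5 at E7.5, and each E7.5 point lies to the right of the E6.75 point of its class.

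The 40 extraembryonic cells of E6.75 (27 by visceral endoderm markers and 13 by extraembryonic ectoderm markers) differed in D and E cyclin transcripts from the 503 cells beside them. Ccnd1 was at 7.28 CPM in the lowest library, 28.6 at the median and 48.7 in the highest, against 189, 211 and 245 CPM in the other cells of the same 6 libraries. The ranges did not overlap, as for 14.2% of genes, and the difference was log2 −2.87 (SE 0.25, edgeR adjusted p = 1.23e-08), or 7.30-fold lower. Over all such cells Ccnd1 was at 30.9 CPM with visceral endoderm markers (22 transcripts) and 30.3 CPM with extraembryonic ectoderm markers (16 transcripts). The cells by these markers were unlike for other members, Ccnd3 being at 49.1 CPM (35 transcripts) and 108 CPM (57), and Ccne1 at 96.9 CPM (69) and 235 CPM (124), in that order, so the pooled values of these genes mix unlike cells. Ccnd2 was lower as well, in 6 of 6 libraries and with 7 transcripts in the 40 cells (log2 −2.42, SE 0.61, edgeR adjusted p = 0.00482). Ccnd3 was higher in 5 of 6 libraries, at 67.6 ± 22.5 against 35.4 ± 10.4 CPM (SD, n = 6; log2 0.94, SE 0.25, edgeR adjusted p = 0.00832). Ccne2 was higher in 6 of 6, at 66.1 ± 27.3 against 28.7 ± 10.9 CPM (SD, n = 6; log2 1.07, SE 0.28, edgeR adjusted p = 0.00724). Ccne1 did not pass (171 ± 85.3 against 225 ± 18.6 CPM, SD, n = 6; edgeR adjusted p = 0.0516), and neither inhibitor did. These were 4 of 7 members where 27.3% of 9133 genes were called. The arms held 4 to 10 extraembryonic cells, and this comparison was added after the levels had been seen.

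**Figure D5:**
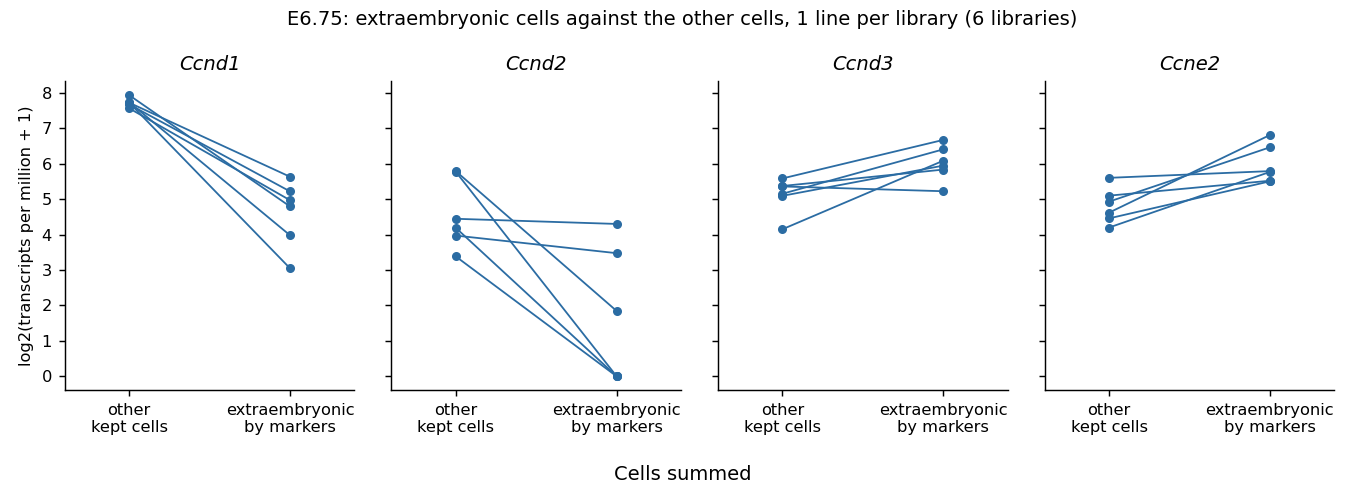
Ccnd1, Ccnd2, Ccnd3 and Ccne2 at E6.75 in cells with extraembryonic markers and in the other kept cells of the same library, as log2(transcripts per 1e6 + 1), with 1 line per library (6 libraries). Ccnd1 falls in each of the 6 lines, from 189 to 245 transcripts per 1e6 down to 7.28 to 48.7, and Ccne2 rises in each.

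The other genes of the G1 pathway were followed from 8 lists, and are given as counts beside the 38.8% called among all genes between the stages (median log2 change of all genes 0.03). No G1 kinase or pocket protein gene passed (0 of 4 tested with edgeR, 1 at an unadjusted p under 0.05, and 1 called by DESeq2, Cdk4 in both cases). Cdk4, the partner of D cyclins, was at 709 ± 48.3 CPM (SD, n = 6) and 654 ± 58.5 CPM (SD, n = 11) with edgeR adjusted p = 0.078, a value that 5 of its alternatives brought under 0.05, DESeq2 among them. Of 10 E2F factor genes 1 rose and 3 fell. E2f4, a factor that acts with pocket proteins to repress, fell by 0.97 (SE 0.09, edgeR adjusted p = 5.42e-08), and E2f5, of the same kind, rose by 0.78 (SE 0.11, edgeR adjusted p = 7.5e-06) on the log2 scale. Of 15 replication genes that E2F drives, 2 were higher and 4 lower at E7.5, among them Cdc45 (log2 0.72) and Cdt1 (log2 −0.52). Of 8 tested genes that degrade or activate G1 regulators 3 were lower, Cks1b, Fbxw7 and Cdc25a, the last of which lost its call in 15 alternatives. With cells thinned to 2000 transcripts the calls for Cdt1 (log2 −0.22, edgeR adjusted p = 0.539) and Cks1b (log2 −0.089, edgeR adjusted p = 0.744) were lost, and with the 4 E7.5 libraries of at least 50 kept cells that for Fbxw7 (edgeR adjusted p = 0.0963).

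Cdkn1c (p57), the third CIP/KIP inhibitor, averaged 27.3 CPM (SD 4.26, n = 6) and then 91.9 CPM (SD 41.7, n = 11), a rise of log2 1.73 (SE 0.24, edgeR adjusted p = 7.5e-06), the 1 call of 2 tested genes among the other CDK inhibitors. It also rose within cells with T (log2 2.06, SE 0.30, edgeR adjusted p = 1.62e-05), and at E7.5 was lower in cells with Sox2 (log2 −1.31, SE 0.17, edgeR adjusted p = 1.21e-05). On the p53 axis 0 of 15 genes were higher and 8 lower at E7.5, with a list median of log2 −0.38. Btg2, a p53 target that restrains proliferation, averaged 38.8 CPM (SD 10.3, n = 6) and then 9.90 CPM (SD 4.56, n = 11), a fall on the log2 scale (−2.06, SE 0.21, edgeR adjusted p = 1.9e-07). Pmaip1, a gene of cell death, and Mdm2, the antagonist of p53, were lower by log2 −0.98 and −0.62. Of 6 MYC family genes 1 was higher and 4 lower, with Mycl at log2 −1.04 and Mxd4, an antagonist of MYC, at log2 1.94 (2.45 ± 1.17 CPM, SD, n = 6, and 11.2 ± 7.43 CPM, SD, n = 11). Of the 4 tested S, G2 and M cyclin genes Ccnb1 and Ccnf were lower (log2 −0.57 and −0.49) and Ccnb2 was higher (log2 0.31), a call lost without the filter on low counts (edgeR adjusted p = 0.106) and with thinned cells (0.228).

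Beside Ccnd2 and Cdkn1a, 3 list genes differed by T at E6.75, where 3.36% of all genes were called. They were 1 of 4 tested G1 kinase and pocket protein genes, 1 of 5 MYC family genes and 1 of 14 p53 axis genes. With edgeR, none of 10 E2F factor genes, 2 other CDK inhibitor genes or 8 genes that degrade or activate G1 regulators was called. The number of calls alone thus does not set the lists apart. Cdk6, the other kinase partner of D cyclins, was higher with T by log2 0.82 (SE 0.12, edgeR adjusted p = 7.22e-05), Mycl by 0.46 (edgeR adjusted p = 0.0125) and Btg2 by 0.56 (edgeR adjusted p = 0.0222), the last 2 of which DESeq2 did not call. With edgeR and with DESeq2, none of the 15 replication genes (1 and 0 at an unadjusted p under 0.05) or the 4 later cyclin genes (0 and 0) was called. In the extraembryonic cells of E6.75, 9 of the 15 replication genes were lower and none higher, where 12.5% of all genes were lower and 14.8% higher. The list median was log2 −0.46 against −0.03 over all genes. Cells with visceral endoderm and with extraembryonic ectoderm markers were pooled here and not compared for list genes. Cdk6 was lower there (log2 −1.26, SE 0.36, edgeR adjusted p = 0.0118) and Cdkn1c higher (log2 1.33, SE 0.28, edgeR adjusted p = 0.00106).

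The genes whose levels were most like those of a member over the 17 library sums are given as Pearson r of log2(CPM + 1), without a test, since the libraries of a stage share their protocol. For Ccnd2 they were Epha4 (r = 0.976), Meis2 (0.975) and Pcdh19 (0.972), of which Meis2 had r = 0.897 within the 6 E6.75 libraries and 0.548 within the 11 E7.5 libraries. Ccnd3 and Ccne2 were each other's nearest gene over the 17 sums (r = 0.884), and the r of the pair was 0.849 within E6.75 and 0.851 within E7.5. Nearest genes were not sought within a stage. Within E6.75, Ccnd3 had a higher r with BC055324 (0.962) and Ccne2 with Cmss1 (0.901). For Cdkn1a the nearest was Fam210b (r = 0.869, with 0.917 within E6.75 and 0.905 within E7.5), for Cdkn1b Mrpl27 (0.850), for Ccnd1 Eif4g1 (0.895) and for Ccne1 Ranbp1 (0.904).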

How the data were processed

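The authors deposited expected counts, 1 value for each gene in each barcode column; every value was tested and equals, within 4.7e-11, a whole number of observed UMIs corrected for collisions among 4096 possible UMIs. The submitters' processing notes name bcl2fastq 2.17.1.14 and BWA 0.6.2-r126. The counting program, genome build and use of strand were not given in the sources used here. The 96 columns in use per library were taken, and cells with at least 2000 nuclear transcripts kept (spike-ins and 22 mitochondrial genes left out). No doublet caller was run. Cells whose visceral endoderm markers summed to at least 0.5% of transcripts, or with at least 4 of 8 extraembryonic ectoderm markers, were left out before gating. A gate is at least 1 transcript of the gene, and arms needed 3 cells.

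Expected counts were rounded, summed per library or arm, and tested in R 4.3.3 with edgeR 4.0.16 (filterByExpr, TMM, quasi-likelihood F test, Benjamini-Hochberg adjustment over all genes tested, threshold 0.05), with the library as a block in gate and interaction fits. Standard errors were taken as the log2 change over the root of F. The edgeR code was tested on simulated data. Depth per sample is given with the results, and small sums limit precision. Alternatives were DESeq2 1.42.0, no filter, observed UMIs, thinning (seed 20240611), cells of at least 10000 transcripts, other gates and left-out libraries. By the rule for named genes, all 7 members were followed in every comparison, and a member without a value there was not called; from the 8 lists, up to 4 genes each with the smallest p between the stages, and the 3 genes most like each member. The members and lists were chosen with earlier results of these data known.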

Additional observations from a re-analysis of the deposited data

Results flagged for a closer look

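The difference in Ccnd2 between cells with and without Mesp1 was not the same at both stages: the interaction fit with edgeR gave log2 −1.63 (SE 0.27, adjusted p = 0.00164), from 3 libraries of the earlier stage and 11 of the later.

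Single libraries stood far from the others of their group in 15 of 91 groups of 4 to 10 values. The limits used give about 1 in 20 for independent groups of normally distributed values. Small sums need not be so distributed, and the groups share libraries, so that rate is no measure of chance here. Groups of fewer than 4 or more than 10 values, among them all kept cells of E7.5, were not tested. Ccne1 was lowest in E6.75 replicate 2_9 in 5 of the 15 groups, at 182 CPM in all kept cells (others 219 to 238), 182 in cells without T, 179 in cells without Foxa2, 194 in cells with Sox2 and 189 in the cells that were not extraembryonic. Ccne1 was highest in E6.75 replicate 1_11 in cells with Foxa2 (309 CPM, 3 to 39 cells an arm) and in E7.5 replicate 11 in cells with Sox2 (284 CPM, others 103 to 176). Without Foxa2 at E7.5, Ccnd1 was highest in replicate 11 (224 CPM, others 111 to 135), Ccnd2 in replicate 1 (467 CPM, others 227 to 342), Cdkn1a in replicate 2 (125 CPM, others 4.73 to 54.7) and Cdkn1b in replicate 12 (68.6 CPM, others 23.5 to 43.8). By Sox2 at E7.5, Ccne2 was highest in replicate 8 without Sox2 (113 CPM, others 27.2 to 69.5), and Cdkn1b in replicate 12 with Sox2 (77.9 CPM) and in replicate 7 without it (75.5 CPM). Cdkn1a in extraembryonic cells of E6.75 was highest in replicate 2_14 (117 CPM, others 0 to 30.0).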

How the results depend on the processing

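The 23 calls of members kept their direction in all 201 alternatives run and their call in 188. The 13 lost calls included those of Ccnd2 by T at E7.5 in 4 (edgeR adjusted p up to 0.688) and Ccne2 by Sox2 at E7.5 in 3. Ccnd3 lost its call by Foxa2 at E7.5 in 2 and between stages over all kept cells in 1. With the gate read at 2000 transcripts, the stage calls of Ccne1 in cells with Sox2 and no T and in cells with T were lost. The stage call of Ccnd3 in cells with T was lost with that gate as well. The 30 other named genes lost 30 calls and gained 7 in 737 alternatives, 15 losses being those of Cdc25a and 5 gains those of Cdk4; thinned cells lost those of Cdt1, Cks1b, Mcm2 (log2 −0.035, edgeR adjusted p = 0.934), Tfdp2, Aen, Ccnb2 and Cdc25a. Of these genes, 4 values turned sign, all near 0: Cdkn2d at log2 −0.03 without E6.75 replicate 1_11 and −0.059 without E7.5 replicate 12 (−0.059 to 0.16 leaving out 1 library, 0.08 otherwise), and, in cells thinned to 2000 transcripts, Cul1 at 0.017 and Mcm4 at 0.0062 (edgeR adjusted p = 0.991, against 0.0104).

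Counts of genes called moved more. Thinning cells to 2000 transcripts left 622 genes between stages (3879 otherwise; 3403 to 3920 leaving out 1 library). By T the E6.75 count of 327 was 115 with no replicate block, 164 with DESeq2 and 508 with no filter, and the E7.5 count of 123 was 73, 377 with no filter and 269 with the gate at 2000 transcripts, which also gave 94 for the interaction (37). By Mesp1 the E6.75 count of 129 was 35 with no replicate block, 38 with DESeq2, 259 with no filter and 76 to 245 leaving out 1 library (replicate 2_13 and 2_9); the E7.5 count of 374 was 877 with no filter and 136 with the gate at 2000. By Foxa2 the E6.75 count of 118 was 22 with no replicate block, 58 with DESeq2, 204 with no filter, 23 with the gate at 2000, 442 with no cells left out and 48 with visceral endoderm left out from 0.1% of transcripts; the E7.5 count of 149 was 53, 722 with no filter and 336 with the gate at 2000, and the interaction (77) gave 116 with no cells left out and 147 with that gate. By Sox2 the E6.75 count of 87 was 3 with no replicate block, 41 with DESeq2, 1.9e+02 with no filter, 37 with that gate and 343 with no cells left out; the E7.5 count of 530 was 336 with no replicate block, 845 with no filter and 171 with that gate; the interaction (130) gave 78 in cells of at least 10000 transcripts and 43 with that gate. With that gate the stage counts were 810 (1489) in cells with Sox2 and no T and 665 (2446) in cells with T. The cause was not tested, beyond that no filter tests more genes and thinning uses fewer transcripts. The gate at 2000 transcripts could not be fitted for Mesp1 at E6.75 or its interaction, with 2 libraries. Alternatives by visceral endoderm at 0.1%, by libraries of 50 cells and by libraries numbered from 2 in gates were chosen after seeing the data. At E7.5, 0 to 12 Cdkn1a transcripts per arm without T set what can be seen of it.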
